A study of Mus musculus with 9 samples.

Results

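The mouse p53 gene (Trp53) and 9 genes known as its regulators or transcriptional targets were followed in MYCN-driven T cell lymphoma and in control CD4 T cells. The members, selected by gene symbol from the deposited count table, were Trp53, Mdm2, Mdm4, Trp53inp1, Ccng1, Sesn1, Sesn2, Zmat3, Phlda3 and Eda2r, which are 10 of the 46078 genes of the table. All 10 symbols were found once. A filter on low counts was passed by 9 of them, as by 15401 genes of the whole table, and Eda2r did not pass it. Per the labels, 6 libraries came from MYCN-induced T cell lymphoma cells of the thymus (lymphoma 34, 53, 56, 70, 72 and 86) and 3 from CD4+ T cells of the spleen (CD4 1, 2 and 3). Both groups are of the C57BL/6J strain. The series design states that transcript 3′ ends were sequenced, while the protocol names standard Illumina protocols. The labels used here give no age, no promoter or Cre line behind MYCN, no statement that the tumours arose independently and no purity of either cell preparation. Separate animals are not stated for the libraries of a group, so p-values measure the spread between these libraries.

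p53 is a transcription factor that is stabilised by DNA damage and by excess oncogene activity, and it then switches on genes for growth arrest, cell death, DNA repair and metabolic control. MDM2 is the ubiquitin ligase that marks p53 for degradation and is itself a p53 target, while its relative MDM4 mainly blocks p53 transactivation. MYC family oncogenes are known to engage p53 through the ARF protein of the Cdkn2a locus, and loss of p53 is a classical cause of thymic lymphoma in mice. Because p53 is controlled largely at the protein level, Trp53 mRNA does not report p53 protein, and target transcripts are commonly read in its place.

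Reads counted in genes ranged from 11170704 to 15769679 per lymphoma and from 8099960 to 10808828 per CD4 library. Lymphoma 53 stood apart: its mean Pearson r with the other lymphomas, across tested genes, was 0.891, while the other 5 lymphomas had 0.936 to 0.943. The closest pairs of lymphomas were 70 with 72 (r 0.980) and 56 with 86 (r 0.957), and lymphoma 34 had r of 0.953 with both 56 and 70 and 0.949 with 72. Because the labels do not say that lymphomas are independent, fits were also made with 34, 70 and 72 averaged, alone and together with 56 and 86 averaged. The r values of lymphoma 34 do not set it with 70 and 72 rather than with 56. None of 10 T cell markers was at 0 in all libraries of a group, and their summed level was 1998 to 3663 CPM in lymphoma and 2815 to 2915 CPM in CD4 (CPM, counts per 1000000 of the scaled library size). The highest sum, in lymphoma 53, included 1535 CPM of Thy1. The genes Cd4 and Cd2 lay lower in all lymphomas than in all CD4 libraries, and Thy1 lay higher. The Cd4 gene had 6.04 to 71.9 CPM in lymphoma and 199 to 263 CPM in the CD4 libraries. CD4 libraries also held transcripts of other cells. For all 15 B cell markers the CD4 libraries lay above the lymphomas without overlap, with a summed level of 2848 to 3488 CPM against 259 to 425 CPM, and none was at 0 in a whole group. For 6 plasmacytoid dendritic cell markers the sums were 545 to 573 CPM in CD4 and 49.7 to 100.3 CPM in lymphoma. The 14 myeloid markers summed to 555 to 703 CPM in CD4 and 63.9 to 2195 CPM in lymphoma. The highest sum, in lymphoma 56, included 1035 CPM of S100a8 and 989 CPM of S100a9. Lymphoma 34 also held 501 CPM of Elane, 396 CPM of S100a9 and 264 CPM of S100a8. Erythroid markers (9 in the table) reached 889 CPM in lymphoma 86, against 100.1 to 359 CPM in CD4. Stromal and thymic epithelial markers (14) summed to 97.8 to 180.8 CPM in lymphoma and 219 to 235 CPM in CD4, with Dcn, Lum, Krt5, Krt8 and Foxn1 at 0 in all CD4 libraries and Lum and Cdh5 at 0 in all lymphomas. All 20 proliferation genes were higher in every lymphoma (4299 to 5931 CPM summed) than in every CD4 library (497 to 643 CPM). Sex coincided with the groups: 4 Y-linked genes were higher in all lymphomas and Xist in all CD4 libraries, so sex, tissue of origin and group cannot be told apart.

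Promoter sequence of 8 of the members was matched by symbol in RefSeq (GRCm38.p6, 10 start sites, 250 bases before to 50 after each start). Trp53inp1 and Zmat3 had no entry. Each window was searched for the p53 decamer consensus, which reads the same on both strands, singly without mismatch and as a pair separated by 0 to 13 bases in which the central C and G of each decamer were required. Of the 10 windows 4 held an exact decamer (Trp53, Mdm2, Ccng1 and the downstream start of Sesn1), as did 8.36% of all 32851 promoter windows. The best pair matched 19 of 20 positions in Ccng1, 18 at the downstream start of Sesn1 and 17 in Trp53 and at the downstream start of Mdm4. Pairs that matched at least 19, 18 and 17 positions stood in 0.627%, 4.09% and 15.6% of all windows. The 3 windows below are shown because Ccng1 is the member with the closest match and did not pass the test between the groups, while Sesn1 and Mdm4 fell. Each is 300 bases, 5′ to 3′ on the gene's strand, with the best pair in capitals: Ccng1 on the minus strand of chr11:40755237-40755536, Sesn1 on the plus strand of chr10:41887189-41887488 and Mdm4 on the minus strand of chr1:133025367-133025666.
Ccng1: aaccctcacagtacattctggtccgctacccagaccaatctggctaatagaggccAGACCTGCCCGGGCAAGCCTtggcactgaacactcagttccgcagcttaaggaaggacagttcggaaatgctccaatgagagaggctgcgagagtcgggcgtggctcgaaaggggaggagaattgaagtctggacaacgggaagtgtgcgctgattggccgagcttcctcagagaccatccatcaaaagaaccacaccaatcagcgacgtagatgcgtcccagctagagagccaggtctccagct
Sesn1: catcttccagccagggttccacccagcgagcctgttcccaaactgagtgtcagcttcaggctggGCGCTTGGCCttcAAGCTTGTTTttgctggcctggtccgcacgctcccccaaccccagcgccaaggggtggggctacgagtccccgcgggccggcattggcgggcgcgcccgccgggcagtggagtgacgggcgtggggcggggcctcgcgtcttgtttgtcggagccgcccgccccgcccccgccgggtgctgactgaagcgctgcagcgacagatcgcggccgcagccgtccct
Mdm4: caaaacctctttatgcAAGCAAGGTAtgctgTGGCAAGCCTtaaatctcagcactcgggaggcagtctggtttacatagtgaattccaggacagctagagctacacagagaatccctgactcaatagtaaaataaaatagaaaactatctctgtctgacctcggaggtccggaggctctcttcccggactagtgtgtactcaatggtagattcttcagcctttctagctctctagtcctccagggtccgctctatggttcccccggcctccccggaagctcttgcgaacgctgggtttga
A match describes letters in these windows and is no evidence of binding.

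Of the 9 tested members, 3 were lower in lymphoma and 0 were higher by the quasi-likelihood test of edgeR (adjusted p under 0.05, Benjamini-Hochberg method, over all 15401 genes). Mdm4, the p53 inhibitor, and the stress-response genes Sesn1 and Trp53inp1 fell by 1.53- to 1.9-fold, while Trp53, Mdm2, Ccng1, Sesn2, Zmat3 and Phlda3 did not pass the threshold. By edgeR 0 members were also higher at an unadjusted p under 0.05, as by DESeq2 and limma voom. Across all tested genes 46.6% were called, 24.7% higher and 21.9% lower, and 33.3% of the tested members were. In bulk RNA, fewer cells that express a gene and less RNA per cell cannot be told apart. The 3 members that fell were also the only ones whose groups did not overlap in CPM, and 22.3% of all tested genes lay lower without overlap. No member lay higher without overlap, which 22.6% of all tested genes did. The median log2 fold change was -0.21 over the 9 members and 0.04 over all tested genes. Without lymphoma 53 the number of lower members was 4, Zmat3 being added.

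**Figure D1:**
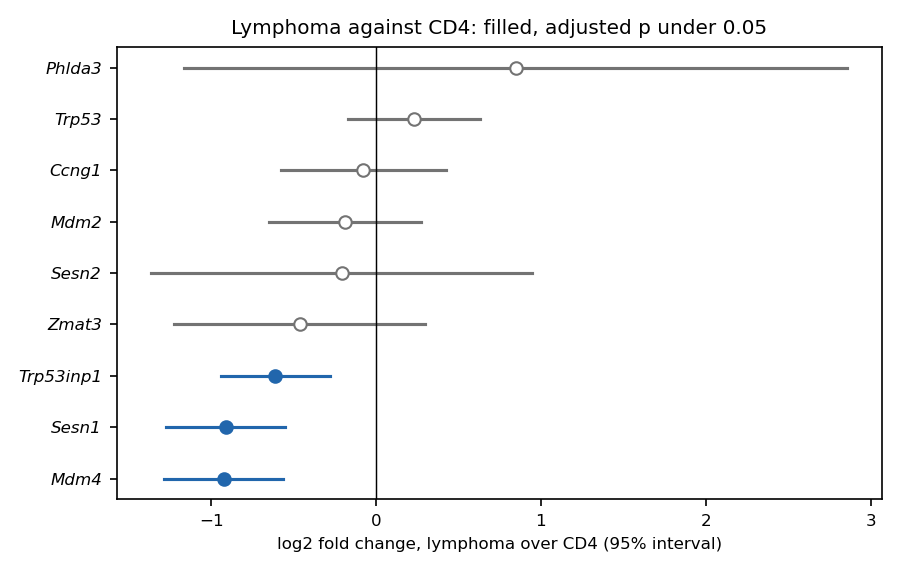
Log2 fold change of lymphoma over CD4 (x axis) for the 9 tested members (y axis), with lines for the 95% interval and filled points for an adjusted p under 0.05. Mdm4, Sesn1 and Trp53inp1 lie wholly below 0, and the intervals of the other 6 include 0.

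Trp53 itself (ENSMUSG00000059552, chr11:69580359-69591873, plus strand, GRCm38) was detected in every library and did not pass the test of a difference between the groups. It had 43.5, 60.2 and 53.03 CPM in CD4 1, 2 and 3. In lymphoma it ranged from 48.2 CPM (lymphoma 72) through a median of 61.4 to 76.4 CPM (lymphoma 56). The groups overlapped, although 4 of 6 lymphomas lay above all CD4 libraries. The lymphomas averaged 61.3 ± 9.53 CPM (SD, n = 6), and the CD4 libraries averaged 52.3 ± 8.39 CPM (SD, n = 3). The log2 fold change was 0.23 (SE 0.18, 95% interval -0.17 to 0.63), with an edgeR adjusted p of 0.327. The lowest count in a lymphoma was 664 reads, in lymphoma 53. The table gives reads per gene and no sequence, so mutations and splice forms of Trp53 were not examined.

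**Figure D2:**
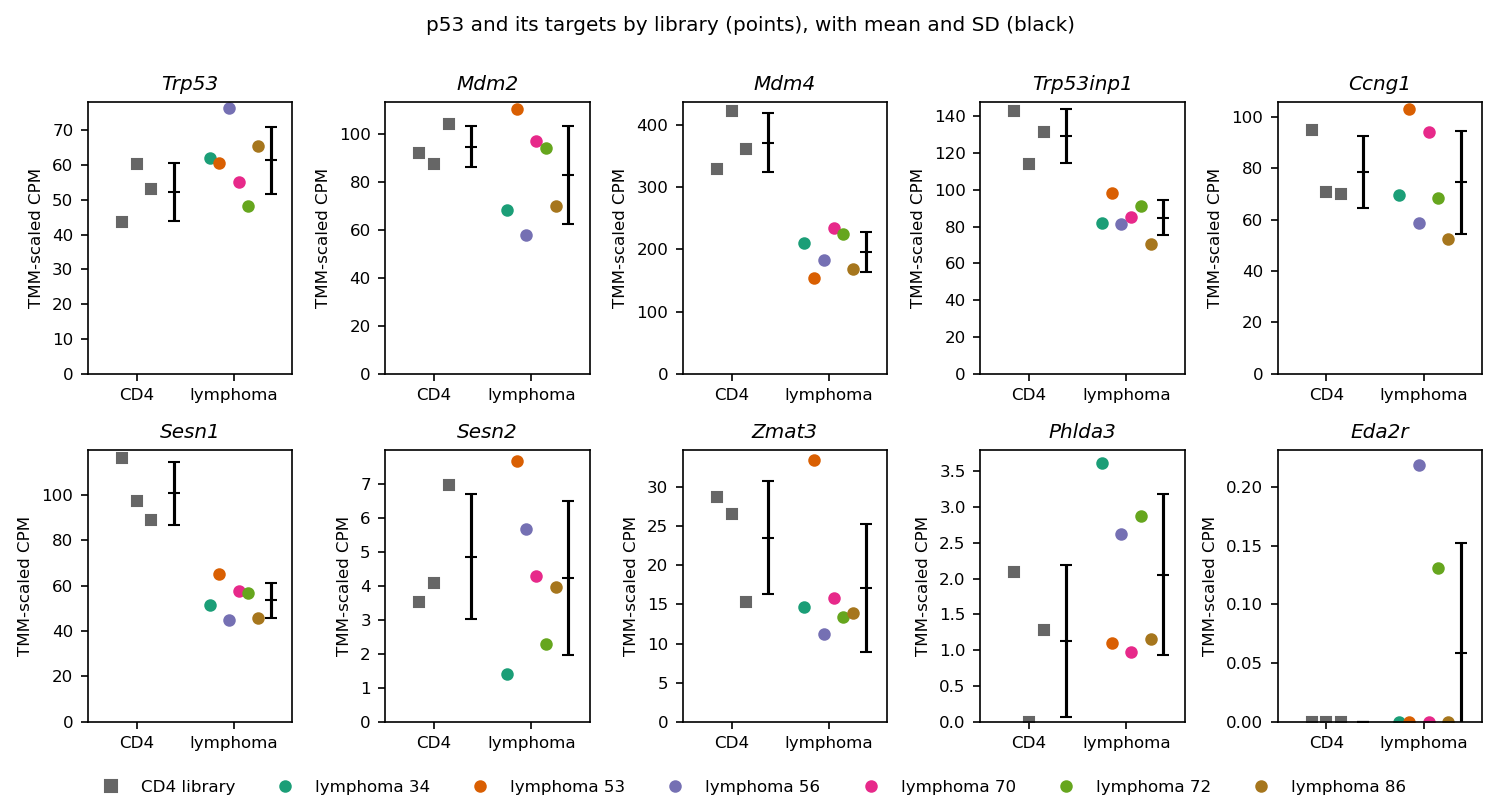
TMM-scaled CPM (y axes, linear, each starting at 0) of the 10 members in the CD4 libraries (grey squares) and the lymphomas (coloured circles), with group mean and SD in black. CD4 libraries lie above all lymphomas for Mdm4, Trp53inp1 and Sesn1, and lymphoma 53 is the highest lymphoma in 6 panels.

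Of the main negative regulators of p53, Mdm4 fell and Mdm2 did not pass the test. The difference between their changes was not tested. Mdm2 (ENSMUSG00000020184, chr10:117688875-117710758, minus strand) had 92.0, 87.5 and 103.9 CPM in CD4 1, 2 and 3. Lymphomas ran from 57.6 CPM (lymphoma 56) through a median of 81.9 to 110.4 CPM (lymphoma 53). Lymphomas 34, 56 and 86 lay below all CD4 libraries, lymphoma 53 above them, and 70 and 72 among them. The means, 82.8 ± 20.5 CPM (SD, n = 6) and 94.5 ± 8.51 CPM (SD, n = 3), differed by a log2 fold change of -0.19 (SE 0.21, 95% interval -0.65 to 0.27, edgeR adjusted p 0.493).

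Mdm4 (ENSMUSG00000054387, chr1:132959484-133030561, minus strand) had 330 CPM in CD4 1, 423 CPM in CD4 2 and 362 CPM in CD4 3. Lymphoma values ranged from 153.5 CPM (lymphoma 53) through a median of 197 to 234 CPM (lymphoma 70), all below the lowest CD4 library. The CD4 mean was 372 ± 47.5 CPM (SD, n = 3) and the lymphoma mean 196 ± 32.1 CPM (SD, n = 6). The log2 fold change was -0.92 with an SE of 0.17, and the adjusted p from edgeR was 0.000783. Over 20 alternatives it stayed between -1.03 and -0.81 and kept its call in each.

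A ratio of counts within 1 library does not depend on scaling, so Mdm2 and Mdm4 were also set against Trp53. There were 7.58, 7.03 and 6.83 Mdm4 counts per Trp53 count in CD4 1, 2 and 3. In the lymphomas this ratio was 2.40 in 56, 2.53 in 53, 2.59 in 86, 3.39 in 34, 4.24 in 70 and 4.66 in 72. All lymphomas lay below all CD4 libraries, at 3.30 ± 0.964 (SD, n = 6) against 7.15 ± 0.392 (SD, n = 3). The log2 difference was -1.16, with an exact permutation p (two-sided) of 0.0238, or 0.0476 adjusted over both ratios by the Benjamini-Hochberg method. No smaller p is possible with 6 and 3 libraries. Leaving out CD4 1, 2 or 3 gave an exact p of 0.0714, and averaging lymphomas 34, 70 and 72 gave 0.0571, each the smallest that those numbers of libraries allow. Mdm2 counts per Trp53 count overlapped, at 1.41 ± 0.495 (SD, n = 6) and 1.84 ± 0.346 (SD, n = 3), where the exact permutation p was 0.262 (two-sided). That ratio spread within lymphoma from 0.754 in lymphoma 56 to 1.95 in lymphoma 72. These ratios were chosen after levels had been seen, and the adjustment over both ratios does not cover that choice. The Mdm4 ratio is therefore no separate test of the fall of Mdm4.

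**Figure D3:**
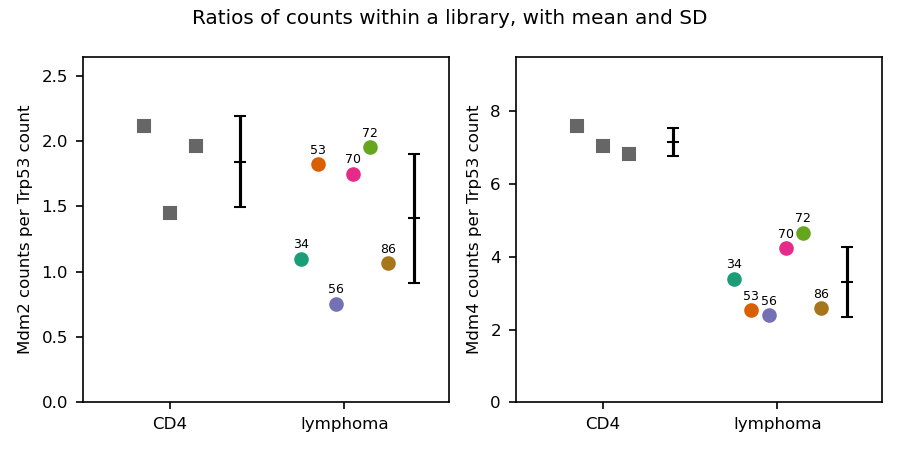
Counts of Mdm2 (left) and Mdm4 (right) per count of Trp53 in the same library (y axes, linear from 0), for CD4 (squares) and numbered lymphomas (circles), with mean and SD in black. The Mdm4 ratio is 6.83 or more in CD4 and 4.66 or less in lymphoma, and the Mdm2 ratios overlap.

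Sesn1 and Trp53inp1 were the targets that fell. Sestrin 1, the product of Sesn1 (ENSMUSG00000038332, chr10:41809935-41908424, plus strand), restrains mTORC1 and limits oxidative stress. Its transcript stood at 115.9, 97.2 and 88.8 CPM in CD4 1, 2 and 3. Among lymphomas it ranged from 44.9 CPM (lymphoma 56) through a median of 53.9 to 65.1 CPM (lymphoma 53), so every lymphoma was below every CD4 library. CD4 libraries averaged 100.6 ± 13.9 CPM (SD, n = 3), while lymphomas averaged 53.5 ± 7.74 CPM (SD, n = 6). The log2 fold change was -0.91 with an SE of 0.17, at an adjusted p of 0.000864 from edgeR. It was called in all 20 alternatives, between -1.01 and -0.78.

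Trp53inp1 (ENSMUSG00000028211, chr4:11156431-11174379, plus strand) encodes a stress-induced protein that promotes p53-dependent death and autophagy. CD4 1, 2 and 3 had 142.7, 113.9 and 131.5 CPM. The lymphomas ran from 70.4 CPM (lymphoma 86) through a median of 83.3 to 98.4 CPM (lymphoma 53), again with no overlap. The mean of 129.4 ± 14.5 CPM in CD4 (SD, n = 3) stood against 84.8 ± 9.57 CPM in lymphoma (SD, n = 6). The log2 fold change was -0.61 with an SE of 0.15, and edgeR gave an adjusted p of 0.00622. With lymphomas 34, 70 and 72 averaged into 1 library and 56 and 86 into another, the change was -0.56 and no longer passed (edgeR adjusted p 0.0583).

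B cell, plasmacytoid dendritic and proliferation markers moved with the groups as given above. Their part was not tested, neither in the changes of the wider p53 pathway genes given below nor in the falls of Mdm4, Sesn1 and Trp53inp1. The log2 fold changes of the 3 genes without lymphoma 53, which was the lowest lymphoma for Mdm4 and the highest for Sesn1 and Trp53inp1, were -0.87 for Mdm4, -0.98 for Sesn1 and -0.66 for Trp53inp1.

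Ccng1, Zmat3 and Sesn2 overlapped between the groups. Ccng1 (ENSMUSG00000020326, chr11:40748552-40755311, minus strand) encodes cyclin G1, a partner of the phosphatase PP2A. It had 94.8, 70.7 and 69.9 CPM in CD4 1, 2 and 3, and 52.6 CPM (lymphoma 86) to 103.1 CPM (lymphoma 53), median 69.1, in lymphoma. Its log2 fold change was -0.08 (SE 0.23, 95% interval -0.58 to 0.42, edgeR adjusted p 0.810), and alternatives gave -0.20 to 0.10.

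Zmat3 (ENSMUSG00000027663, chr3:32334792-32366014, minus strand) encodes an RNA-binding protein that mediates part of p53 tumour suppression. CD4 1, 2 and 3 had 28.7, 26.5 and 15.3 CPM. Lymphoma 53 had 33.4 CPM, and the other 5 lymphomas lay close together between 11.3 CPM (lymphoma 56) and 15.8 CPM (lymphoma 70). With all libraries the log2 fold change was -0.46 (SE 0.35, 95% interval -1.22 to 0.30, edgeR adjusted p 0.304). Without lymphoma 53 it was -0.77 and passed the threshold (edgeR adjusted p 0.0167), so that library alone decides this call.

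Sesn2 (ENSMUSG00000028893, chr4:132492032-132510501, minus strand) encodes sestrin 2, the relative that senses leucine for mTORC1. It was counted at 22 to 84 reads per lymphoma and 34 to 76 per CD4 library. Levels were 3.53, 4.08 and 6.97 CPM in CD4 1, 2 and 3, and 1.42 CPM (lymphoma 34) to 7.67 CPM (lymphoma 53), median 4.13, in lymphoma. The log2 fold change of -0.21 (SE 0.53, 95% interval -1.36 to 0.94, edgeR adjusted p 0.777) is imprecise, and its interval includes a 2-fold fall. Its sign turned in alternatives, which gave -0.47 to 0.15. Sesn1 was called lower and Sesn2 was not, but the difference between their changes was not tested.

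Phlda3 and Eda2r were scarce. Phlda3 (ENSMUSG00000041801, chr1:135766119-135769136, plus strand), whose product restrains AKT at the membrane, had 22, 0 and 14 counts in CD4 1, 2 and 3 and 12 to 56 counts in lymphoma. Lymphomas 34, 72 and 56 had 3.61, 2.88 and 2.62 CPM, above all CD4 libraries, and lymphomas 70, 53 and 86 had 0.980 to 1.16 CPM. Its log2 fold change was 0.85 (SE 0.92, 95% interval -1.16 to 2.86, edgeR adjusted p 0.484), and it was 0.29 without CD4 2 and 1.65 without CD4 1. Eda2r (ENSMUSG00000034457, chrX:97333840-97377216, minus strand), a receptor for ectodysplasin A2, had 0 counts in each CD4 library. It had 3 counts in lymphoma 56, 2 in lymphoma 72 and 0 in the other 4. Since a count of 0 allows up to 3 counts, which equal at most 0.360 CPM in any library, no fold is given for it. Eda2r is X-linked, and sex and group cannot be told apart here. No exon of the 10 members overlapped an exon of another gene in GENCODE M21.

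The lymphomas were then compared with one another, member by member, as a description. Lymphoma 53 had the highest level of 6 of the 8 tested members other than Trp53, namely Mdm2, Trp53inp1, Ccng1, Sesn1, Sesn2 and Zmat3, and the lowest level of Mdm4. It was the highest lymphoma at 30.5% of all 15401 tested genes and the lowest at 33.3%, with ties given to the lymphoma of lowest number. The number of 6 was the same with RLE, upper quartile and no scaling. Its Trp53 level of 60.6 CPM was near the lymphoma median. Relative to the CD4 libraries, lymphoma 53 exceeded all of them for Mdm2, Ccng1, Sesn2 and Zmat3.

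At the other end, lymphoma 56 had the highest Trp53 of the 6 (76.4 CPM) together with the lowest Mdm2, Sesn1 and Zmat3 (57.6, 44.9 and 11.3 CPM). It was lowest for 3 of the 8 with TMM or RLE scaling and for 2 with upper quartile or no scaling, while lymphoma 86 went from 2 to 3. Among all 15401 tested genes with TMM scaling, lymphoma 56 was the lowest at 12.2% and lymphoma 86 at 14.4%. Lymphoma 86 had the next highest Trp53 (65.3 CPM) and the lowest Ccng1 and Trp53inp1. Lymphoma 56 also had the highest myeloid and lymphoma 86 the highest erythroid marker sum, and the part of these in the orders was not tested. Lymphoma 72 had the lowest Trp53 (48.2 CPM), with Mdm2 at 94.1 CPM, below that of lymphomas 53 and 70. The orders differed between members: Phlda3 was highest in lymphoma 34 and lowest in 70, and Mdm4 was highest in 70 and lowest in 53. The spread between lymphomas also differed by gene. The highest lymphoma exceeded the lowest by 1.40-fold for Trp53inp1, 1.45-fold for Sesn1, 1.52-fold for Mdm4, 1.59-fold for Trp53, 1.92-fold for Mdm2, 1.96-fold for Ccng1, 2.96-fold for Zmat3, 3.68-fold for Phlda3 and 5.41-fold for Sesn2. Without lymphoma 53 the figure for Zmat3 was 1.40-fold. With 1 library per lymphoma, neighbouring lymphomas in these orders cannot be tested against each other.

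**Figure D4:**
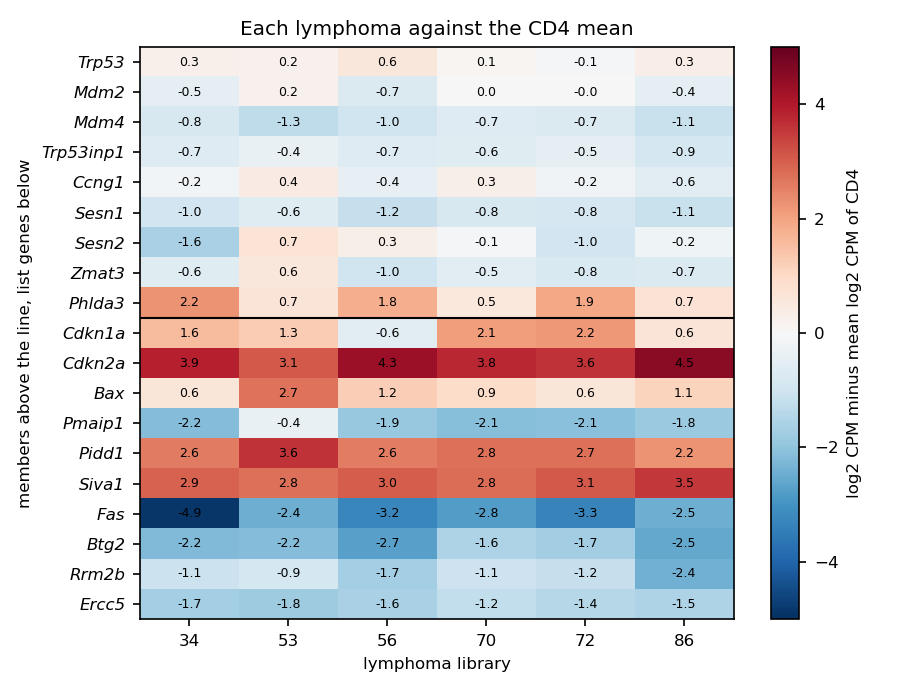
Difference in log2 CPM of each lymphoma (columns) from the mean of the CD4 libraries for the 9 tested members (above the line) and 10 genes of the p53 lists (below it), red for higher and blue for lower. Lymphoma 53 is the reddest column for Mdm2, Ccng1, Sesn2 and Zmat3 and for Bax and Pidd1, while Cdkn1a is lowest in lymphoma 56.

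The wider pathway was covered by 71 listed genes, of which 70 were in the table and 66 were tested. By the edgeR test 16 were higher and 14 lower in lymphoma, or 45.5% changed, against 46.6% of all tested genes. Their median log2 fold change was -0.02. Of 46 listed targets in arrest, death, repair and metabolism 44 were tested, 10 higher and 8 lower, or 40.9% changed. The changed share was 52.9% in the upstream list and 60% in the feedback inhibitor list. It was 25% in the cell cycle, 53.8% in the death, 33.3% in the repair and 41.2% in the remaining target list. Each list held few genes, and over all tested genes 24.7% were higher and 21.9% lower.

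Upstream of p53, 17 of 20 listed kinases, cofactors and relatives were tested, 5 higher and 4 lower. Over all tested genes 24.7% were higher and 21.9% lower. Without CD4 1, 7 of the list were higher (Rpl5 and Ppp1r13l added). Cdkn2a, which encodes the CDK inhibitor INK4A and the MDM2 inhibitor ARF, had 4, 15 and 4 counts in CD4 1, 2 and 3 and 73 (lymphoma 53) to 257 counts (lymphoma 86) in lymphoma. No lymphoma overlapped CD4 for it. From a CD4 mean of 0.850 ± 0.823 CPM (SD, n = 3) to a lymphoma mean of 12.4 ± 4.27 CPM (SD, n = 6) it rose by 3.89 on the log2 scale (SE 0.61, edgeR adjusted p 0.000294). This change was 5.02 without CD4 2, whose 15 counts are most of the CD4 signal. The counts do not separate the INK4A and ARF transcripts. The damage checkpoint kinases Chek1 and Chek2 rose by 3.66 (SE 0.24, edgeR adjusted p 5.77e-07) and 2.43 (SE 0.26, edgeR adjusted p 1.76e-05), while Atm and Atr did not pass (edgeR adjusted p 0.139 and 0.313). With upper quartile scaling Atm passed as lower (-0.38, edgeR adjusted p 0.0446). The acetyltransferases that serve as p53 coactivators, Crebbp and Ep300, fell by 1.11 (SE 0.15) and 0.95 (SE 0.17) on the log2 scale (edgeR adjusted p 8.16e-05 and 0.000815). Hipk2, a kinase that phosphorylates p53 for apoptosis, fell most of the list, by 2.02 on the log2 scale (SE 0.64, adjusted p 0.0221 by edgeR), and its call was lost without CD4 3 (-1.72, edgeR adjusted p 0.0950).

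Of 5 further genes listed under p53 feedback inhibition, Gtse1, which is a gene of the G2 phase, rose by 3.23 (SE 0.55, edgeR adjusted p 0.000571). Without CD4 1 its change was 4.10. The ubiquitin ligases Rchy1 and Cop1 (Rfwd2 in the table) fell by 0.90 (SE 0.23) and 0.51 (SE 0.15) on the log2 scale, with edgeR adjusted p of 0.00632 and 0.0175. The Cop1 call was lost with lymphomas 34, 70 and 72 averaged (edgeR adjusted p 0.0551), with 56 and 86 averaged as well (0.0979), without CD4 2 (0.0688) and without CD4 3 (0.0931). The p53-induced phosphatase gene Ppm1d did not pass, at 0.75 on the log2 scale (SE 0.30, adjusted p 0.0594 by edgeR). It passed as higher without lymphoma 34, without lymphoma 53 and without CD4 3 (edgeR adjusted p 0.0443, 0.0165 and 0.0395). The remaining listed gene, the noncoding Pvt1, did not pass (-0.81 on the log2 scale, SE 0.77, edgeR adjusted p 0.422).

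Of 8 cell cycle targets, 1 was higher and 1 lower, against 24.7% higher and 21.9% lower over all tested genes. These counts depended on single libraries: 3 were higher without lymphoma 56 (Cdkn1a and Ptprv added), 2 higher and 2 lower without lymphoma 53 (Ptprv and Sfn added), and 2 higher without lymphoma 86 or by DESeq2 (Ptprv added). Cdkn1a, which encodes the CDK inhibitor p21 and is the best known arrest target, had 3.34, 11.3 and 16.9 CPM in CD4 1, 2 and 3. Lymphomas ranged from 5.75 CPM (lymphoma 56) to 39.4 CPM (lymphoma 72), with 37.1 CPM in lymphoma 70 and 21.0 CPM in lymphoma 53. The groups overlapped, and its log2 fold change of 1.18 (SE 0.62, 95% interval -0.18 to 2.54) did not pass (edgeR adjusted p 0.142). Without lymphoma 56 it passed (edgeR adjusted p 0.0455). E2f7, a repressor of cell cycle genes, rose by 3.18 (SE 0.39, edgeR adjusted p 5.17e-05), and the antiproliferative gene Btg2 fell by 2.16 on the log2 scale (SE 0.28, edgeR adjusted p 6.94e-05). The rises of Chek1, Chek2, Gtse1 and E2f7 went with the higher proliferation markers, whose part in them was not tested.

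Death genes moved both ways. Of 13 tested, 5 were higher and 2 lower, against 24.7% higher and 21.9% lower over all tested genes. Perp, a membrane protein of the p53 death programme, had 0, 0 and 1 counts in CD4 1, 2 and 3 and 36 (lymphoma 53) to 558 counts (lymphoma 70) in lymphoma, so its mean was at least 50.8-fold higher against a floor of 3 counts in the shallowest CD4 library. Siva1 rose by 2.96 (SE 0.30, edgeR adjusted p 1.27e-05) and Pidd1, the scaffold of the caspase-2 complex, by 2.82 (SE 0.35, edgeR adjusted p 5.99e-05). Fas, the death receptor, averaged 19.6 ± 4.17 CPM in CD4 (SD, n = 3) against 2.28 ± 1.12 CPM in lymphoma (SD, n = 6). It fell by 3.10 on the log2 scale (SE 0.46, adjusted p 0.000204 by edgeR). Of the BH3-only genes, Pmaip1 (Noxa) fell by 1.93 on the log2 scale (SE 0.53, adjusted p 0.0109 by edgeR) with overlapping groups, and Bbc3 (Puma) stood at -0.16 (SE 0.33, adjusted p 0.721). Without CD4 3, which had 83.9 CPM of Pmaip1 against 24.6 and 17.8 CPM in CD4 1 and 2, the change was -0.93 and the call was lost (edgeR adjusted p 0.154). It was also lost with lymphomas 34, 70 and 72 averaged and 56 and 86 averaged (-1.57, edgeR adjusted p 0.0999).

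Bax, the pore-forming effector of mitochondrial death, was higher in all 6 lymphomas than in any CD4 library, but not evenly. It had 54.9 CPM in lymphoma 53, 12.6 to 19.7 CPM in the other 5 and 5.44 to 10.6 CPM in CD4. The log2 fold change was 1.37 (SE 0.50, edgeR adjusted p 0.0413). It was 0.87 without lymphoma 53, and the call was lost in 7 of 20 alternatives, among them leaving out CD4 1, 2 or 3 or lymphoma 56. Lymphoma 53 was also highest of the 6 for Pidd1, Pmaip1 and Fas, and for 19 of the 44 tested list targets, where 30.5% of all tested genes were highest in it. It was the lowest lymphoma for 13 of the 44, where 33.3% of all tested genes were lowest in it. Of the death targets, Aen and Triap1 were also highest in lymphoma 53, while Perp, Siva1, Bbc3, Ei24 and Tnfrsf10b were lowest in it.

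Repair and metabolic targets were mixed. None of 6 repair targets was higher by edgeR, also at an unadjusted p under 0.05, and 2 were lower: Ercc5, an excision repair nuclease, by 1.54 on the log2 scale (SE 0.17, edgeR adjusted p 2.29e-05) and Rrm2b, the p53-inducible ribonucleotide reductase subunit, by 1.31 (SE 0.33, adjusted p 0.00667 by edgeR). DESeq2 and limma voom called 0 of the 6 higher as well. Over all tested genes 24.7% were higher and 21.9% lower by edgeR. Of 17 other targets tested, 4 were higher and 3 lower. Without lymphoma 53 the counts were 5 and 6 (Cyfip2 added as higher, Tigar, Pank1 and Fuca1 as lower), and limma voom gave 5 lower (Tigar and Pank1 added). The higher call of Abhd4 was lost by limma voom, in both averaged fits and without CD4 2 or CD4 3. Ier5, an immediate early gene, fell by 2.03 on the log2 scale (SE 0.18, edgeR adjusted p 5.54e-06). The noncoding Trp53cor1 (lincRNA-p21), a neighbour of Cdkn1a, had 0 counts in each CD4 library and 4 (lymphoma 72) to 36 counts (lymphoma 34) in lymphoma. Its mean was at least 4.15-fold higher against the floor. That bound describes the mean of 1.49 CPM and not lymphomas 70, 72 and 86, which had 0.857, 0.262 and 1.01 CPM. Lymphoma 72 lay under the floor of 0.360 CPM.

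**Figure D5:**
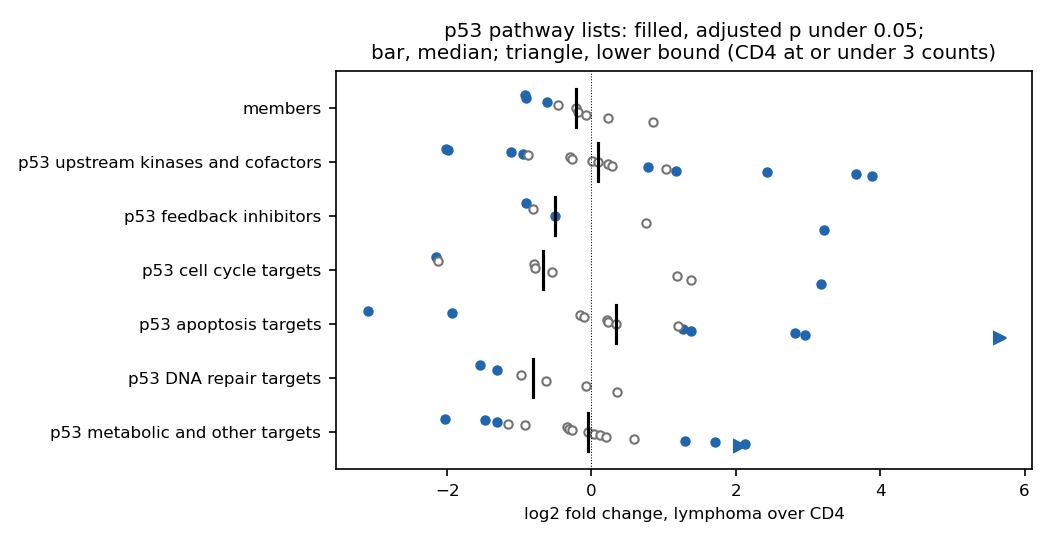
Log2 fold change of lymphoma over CD4 (x axis) of the tested genes of the members and of the 6 p53 lists (y axis), filled for an adjusted p under 0.05, with a bar at each median and triangles for Perp and Trp53cor1 at their lower bounds. Filled points lie on each side of 0 in 5 of the 6 lists, and the medians run from -0.80 (DNA repair) to 0.34 (apoptosis).

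Genes with the most similar pattern were sought among 9423 other tested genes with an average log2 CPM of at least 3. Over the 9 libraries, log2 CPM of Trp53 had the highest Pearson r with AI314180 (0.922), Taf4b (0.891) and Rnf144a (0.885). For Mdm2 these were Rtn4 (0.944), Cbfa2t3 (0.913) and Cdyl2 (0.909). The points share libraries and depth, and these values describe the top of a ranking of 9423 genes.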

How the data were processed

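RNA of 9 mouse libraries was read as a deposited table of raw read counts per Ensembl gene, with symbols and 5 closing summary rows, which were kept out of all tests. Reads in genes were 38.7 to 49.1% of all reads in lymphoma and 27.8 to 35.0% in CD4. Reads outside any feature were 16.6 to 22.5% in lymphoma and 30.4 to 33.3% in CD4. Both shares differed between the groups without overlap, and their part in the fold changes and ratios was not tested. Per the submitters' processing notes the tools include HISAT2 and HTSeq and the builds mm10 and GRCm38. Versions, annotation and strand setting are not given in the sources used here, and 0 columns were unmatched. RNA was extracted with a Maxwell kit, per the labels' protocols. Reads with several alignments stand in a summary row of their own (11.6 to 18.6% of reads).

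Counts were tested with edgeR 4.0.16 (R 4.3.3): filterByExpr with a minimum count of 10, TMM scaling, glmQLFit (robust) and glmQLFTest over all 9 libraries, without covariates, with Benjamini-Hochberg adjustment and a threshold of 0.05. SE is the absolute log2 fold change over the square root of F, and 2 was the prior count for log2 CPM. Alternatives used DESeq2 1.42.0 and limma 3.58.1. The scripts were tested on simulated data of 15401 genes. They called 20% of 100 genes changed by 1 on the log2 scale and 61% of 100 changed by 2, with 4 false calls. The simulation held far fewer changed genes than the 7174 called here, so these shares do not carry over directly. A gene that did not pass may still differ. The floor of 3 counts covers counting error only. Members and lists were chosen with earlier results of these data known. Named genes are the members, Cdkn1a, Cdkn2a, the largest rise and fall past the threshold in each p53 list and the 3 genes most like Trp53 and Mdm2. Other list genes were named after their values were seen. GENCODE M21 (GRCm38) gave locations, and Cop1 was matched to Rfwd2 by its ID. Trp53rk was not analysed here.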

Additional observations from a re-analysis of the deposited data

Results flagged for a closer look

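Among the 6 lymphomas, 1 library stood far from the rest for 6 of the 36 genes examined: its gap to the nearest other lymphoma, as a share of the whole range, was above 0.625. The nominal rate of this rule is about 1 in 20 groups. By the same rule 16.8% of all 15401 tested genes had a lymphoma apart, and in 11.8% it was lymphoma 53. Some of the 36 genes were named after their values had been seen, so 6 of 36 cannot be compared with that share. Lymphoma 53 was highest for 4 of the 6 genes. Zmat3 had 33.4 CPM in it (next 15.8), Bax 54.9 CPM (next 19.7), Pmaip1 26.0 CPM (next 9.17) and Pidd1 59.0 CPM (next 32.2). Lymphoma 53 was lowest for Chek2, with 29.8 CPM where the next lymphoma had 45.6. Lymphoma 86 was highest for Siva1, with 215 CPM where the next had 158.5. Bax, Pmaip1, Pidd1, Siva1 and Chek2 were named after their values had been seen.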

How the results depend on the processing

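No paired analysis was possible because the groups share no replicate number. The number of lower members was 3 in 18 of 20 alternatives, 4 without lymphoma 53 and 2 with lymphomas 34, 70 and 72 averaged and 56 and 86 averaged, and 0 were higher in all 20. The list genes ranged from 12 to 19 higher and 11 to 18 lower. Over all genes, 2595 to 4207 were higher and 2320 to 4027 lower. With RLE, upper quartile and no scaling the median of all genes was -0.02, -0.06 and 0.00278. Trp53, Mdm2, Ccng1, Sesn2 and Phlda3 passed in none of the alternatives run (Phlda3 was tested in 19, having under 10 counts in CD4 2). Rnf144a passed in 4 alternatives, and Cbfa2t3 in 2. The log2 ratio of Mdm4 to Trp53 stayed between -1.34 and -1.08, and its exact permutation p was 0.0714 without any 1 CD4 library, the smallest that 6 against 2 libraries allow. The averaged libraries gave 0.0571 and 0.1, the smallest those numbers allow. Counts were low for Phlda3 and Sesn2 (at most 84 in any library) and Eda2r (at most 3).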
